A study of Mus musculus with 10 samples.

Results

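The selenoproteins and thiol antioxidant enzymes are the genes a cell uses to spend selenium and to remove peroxides, and they were followed here in crypts of the mouse colon, the glands that hold the stem cells of its epithelium. The 43 members, of 33632 gene IDs in the count table, were chosen by symbol: 20 selenoproteins and 23 other genes for selenocysteine synthesis, glutathione, thioredoxin, peroxiredoxins, superoxide dismutases, catalase and the NRF2 pathway. The family was picked after a difference in Selenop between these libraries had been seen, so the values of its members are a description of these libraries and carry no independent test. All 43 members matched a gene ID and passed the filter on low counts. Poly(A) RNA was sequenced from 5 CKO libraries and 5 flox libraries. CKO mice had the genotype Lgr5-EGFP-IRES-CreERT2/+;Sox21fl/fl, in which a knock-in at Lgr5, a marker of crypt stem cells, makes a green fluorescent protein and a Cre recombinase that tamoxifen activates. Flox mice had the genotype Sox21fl/fl and no Cre. Both groups therefore carried the floxed Sox21 allele, ate a normal diet and had a normal liver, while the Lgr5 knock-in was carried by CKO mice alone. The labels used here do not give the age of the mice or the tamoxifen dose, nor do they state if flox mice received tamoxifen or if each library was a separate animal, so the spread below is that between libraries. A crypt cell can carry the deletion only if it, or a cell it descends from, transcribed Lgr5. Each library holds the RNA of whole crypts, and the share of recombined cells in it was not measured.

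Selenocysteine is built into a protein at a UGA codon that would otherwise end translation, with the help of a hairpin in the mRNA downstream of the coding sequence. SEPHS2 makes the selenium donor, PSTK and SEPSECS turn a seryl-tRNA into the selenocysteinyl-tRNA, and SECISBP2 binds the hairpin. Glutathione peroxidases and thioredoxin reductases use the selenocysteine as the catalytic residue, and glutathione, thioredoxins and peroxiredoxins carry the electrons that remove peroxides. GPX2 is the glutathione peroxidase typical of the gut epithelium, and SELENOP is a secreted protein, made mainly by the liver, that carries selenium in plasma.

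The recoded codon sets the selenoproteins apart from the other members. In the GENCODE M21 coding sequences (GRCm38), each of the 20 selenoproteins held an in-frame TGA annotated as selenocysteine, and none of the 23 other members did. Selenop, on chromosome 15, held 10 of them in 380 codons, whereas each of the other 19 selenoproteins held 1. The stretch below runs from codon 318 to codon 377 of Selenop and holds 7 of its 10 selenocysteine codons. It is followed by the windows around the selenocysteine codon of the glutathione peroxidases and of Selenom and Selenow, which are described below, and by the ends of the thioredoxin reductases, where 1 codon follows the selenocysteine. Capitals mark the TGA read as selenocysteine.
Selenop: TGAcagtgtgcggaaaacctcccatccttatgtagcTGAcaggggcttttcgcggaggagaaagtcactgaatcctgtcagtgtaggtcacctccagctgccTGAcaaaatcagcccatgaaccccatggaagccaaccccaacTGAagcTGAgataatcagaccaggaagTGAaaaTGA
Gpx1: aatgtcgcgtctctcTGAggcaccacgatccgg
Gpx2: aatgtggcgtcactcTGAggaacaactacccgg
Gpx3: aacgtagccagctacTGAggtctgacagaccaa
Gpx4: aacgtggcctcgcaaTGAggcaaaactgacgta
Selenom: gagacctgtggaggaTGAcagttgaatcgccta
Selenow: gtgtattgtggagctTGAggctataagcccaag
Txnrd1: ctccagtctggctgcTGAggt
Txnrd2: actgtgactggttgcTGAggc
Txnrd3: actcagaaaggctgcTGAggc

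Total counts ran from 18926634 to 23642415 per library. Sox21, the targeted gene, stood at 5.34 ± 1.94 CPM in CKO and 4.04 ± 1.80 CPM in flox (SD, n = 5 each), so its transcript level did not separate the groups; whether its reads came from the deleted part was not tested. The libraries flox 1 and flox 4 stood apart from the rest. The share of mitochondrial transcripts was 4.30% to 11.8% in CKO, and in flox it was 26.5% for flox 1, 29.3% for flox 4 and 4.88% to 9.03% for the other 3. TMM scaling factors were 0.585 and 0.605 in flox 1 and flox 4 and 0.965 to 1.28 elsewhere. Most log2 fold changes below are therefore given both with all 10 libraries and without these 2 flox libraries, and shares and marker sums with all 10. All 11 colon epithelium markers were present above 1 FPKM on average. Krt8, a keratin of simple epithelia, was at 5469 ± 1008 FPKM in CKO and 5601 ± 912 FPKM in flox. In CPM 5 of the 11 had a log2 fold change of CKO over flox above 0 and 6 below, with Krt8 at -0.46. At an unadjusted edgeR p below 0.05, 1 was higher, Slc26a3 at 0.77, and 2 were lower, Krt18 at -1.14 and Muc2 at -0.73. For all genes these shares were 5.05% and 7.91%. Without flox 1 and flox 4 these 3 stood at 0.63, -0.58 and -0.89. With all libraries the adjusted p of Muc2 was 0.372 in edgeR and 0.0440 in DESeq2.

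Selenop, the selenium carrier, was the member with the largest positive difference with all libraries, and without flox 1 and flox 4 the second after Prdx6. In CPM, counts scaled to the TMM-normalized library size, it read 249, 199, 239, 192 and 273 CPM in CKO 1 to 5, against 91.7, 110, 133, 109 and 167 CPM in flox 1 to 5. Every CKO library lay above every flox library, and the lowest CKO value was that of CKO 4 while the highest flox value was that of flox 5. The group levels were 230 ± 34.6 CPM in CKO and 122 ± 29.2 CPM in flox (SD, n = 5 each), and the fitted fold was 1.89 (95% interval 1.45 to 2.46). As a log2 fold change of CKO over flox this was 0.92 ± 0.18 (SE) with all libraries and 0.76 ± 0.18 without flox 1 and flox 4. Its p adjusted over all 14963 genes was 0.174 in edgeR's quasi-likelihood test and 0.000652 in DESeq2. Without flox 1 and flox 4 it was 0.411 in edgeR, which called 0 of 15628 genes there, and 0.0158 in DESeq2. In these whole-crypt libraries more cells that make a transcript and more transcript per cell cannot be told apart.

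Set against the rest of the selenoproteins the same difference appeared without any scaling between libraries. Selenop took 10.9%, 8.87%, 10.8%, 7.02% and 11.9% of the summed counts of the 20 selenoproteins in CKO 1 to 5, against 1.97%, 5.09%, 4.86%, 2.60% and 7.25% in flox 1 to 5. Here the groups overlapped, because the share in CKO 4 lay below that in flox 5. The mean share was 9.91% ± 1.96 in CKO and 4.35% ± 2.12 in flox. The counts of this sum were close in size in both groups, at 58451 ± 6929 in CKO and 57931 ± 3465 in flox. The summed level of the other 19 selenoproteins was 2119 ± 236 CPM in CKO and 3087 ± 1163 CPM in flox, and its wide spread in flox came with flox 1 at 4570 CPM and flox 4 at 4079 CPM.

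**Figure D1:**
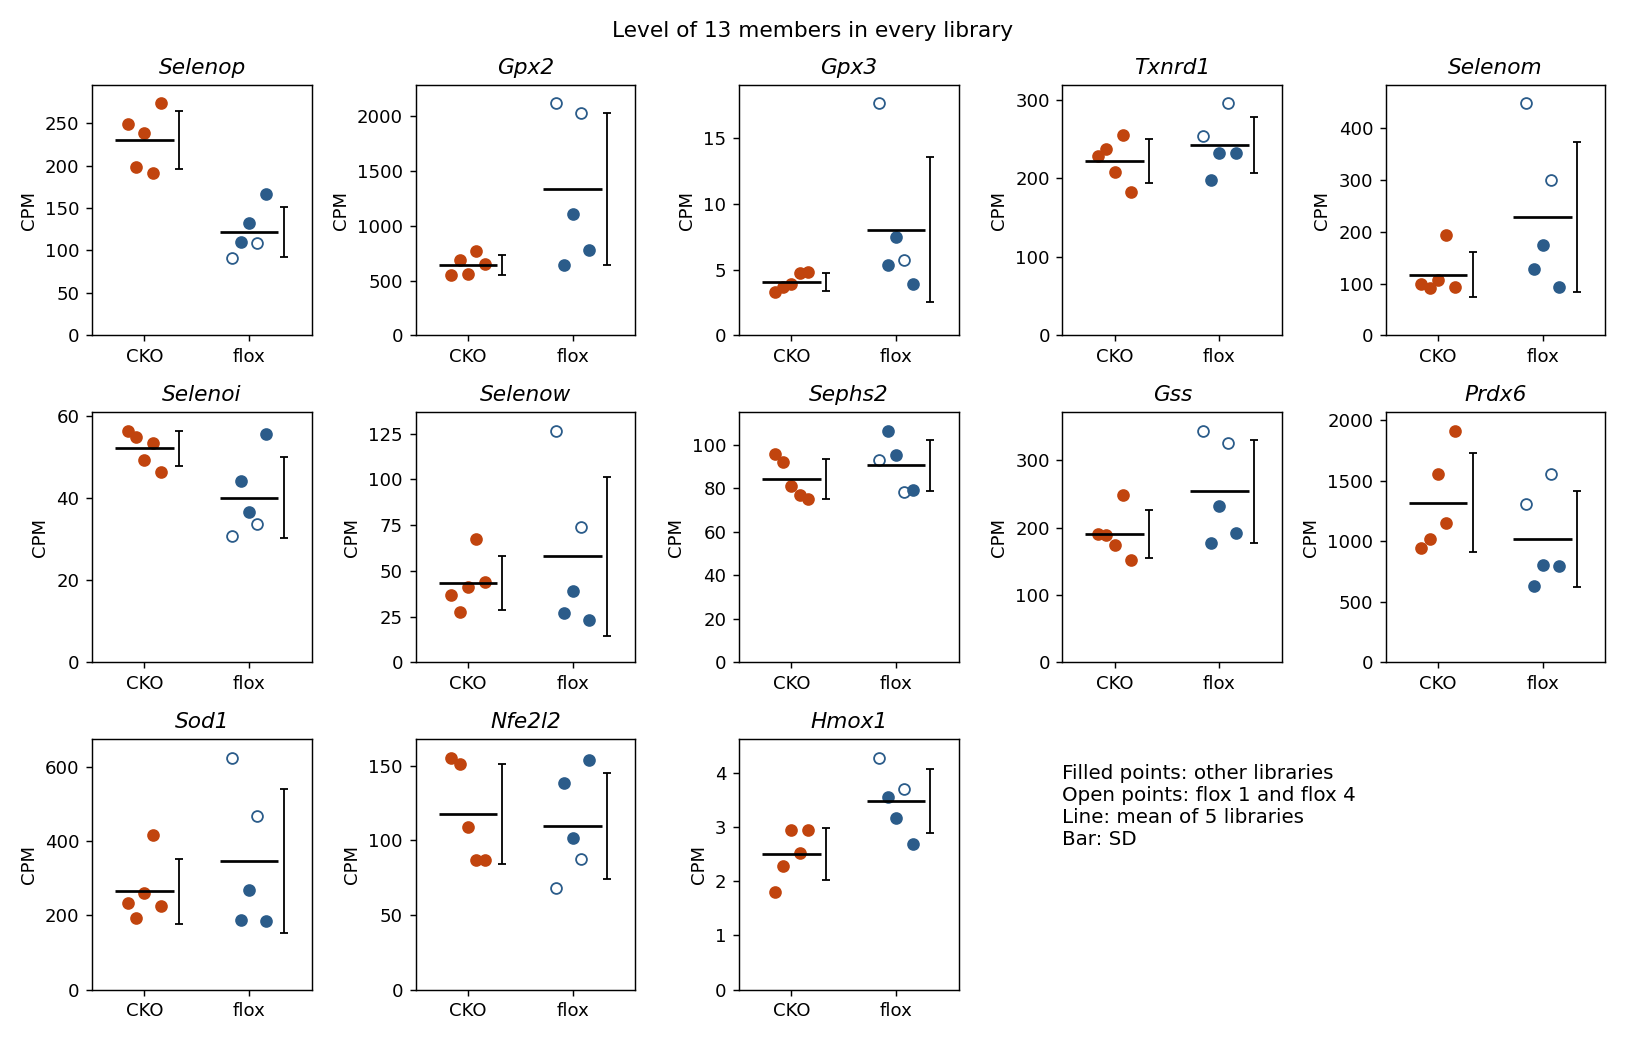
Level of 13 members in CPM in each library, CKO on the left and flox on the right of each panel; the line is the mean of 5 libraries, the bar the SD, and open points are flox 1 and flox 4. The Selenop libraries do not overlap between groups, while the high flox values of Gpx2, Selenom, Gss and Sod1 are those of the 2 open points.

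Several counts put this beside the background of all genes. No gene passed an adjusted p of 0.05 in edgeR (0.0%) or in limma voom (0.0%), and neither did any member. DESeq2 called 170 of 14963 genes (1.14%; 0.394% were called as higher in CKO), among them 1 of the 43 members, Selenop, and 71 of 15628 genes (0.454%) without flox 1 and flox 4, again with Selenop as the only member. At an unadjusted edgeR p below 0.05, 756 genes were higher in CKO (5.05%) and 1183 were lower (7.91%). Among the members these were 2 higher, Selenop and Selenoi, and 4 lower, Gpx2, Gpx3, Selenom and Hmox1. Without flox 1 and flox 4 the shares were 3.34% higher and 3.07% lower, with 3 members higher, Selenop, Prdx6 and Txn1, and 0 lower. The groups did not overlap for 138 genes that were higher in CKO (0.922%) and for 188 that were lower (1.26%), and of the 43 members for Selenop alone, which was higher.

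In human liver-derived cells the forkhead factor FOXO1, the receptor HNF4A and the coactivator PGC-1alpha are known to raise transcription of SELENOP. Ppargc1a, which encodes PGC-1alpha, read 23.8, 15.2, 22.1, 13.3 and 18.96 CPM in CKO 1 to 5, against 8.31, 13.6, 12.3, 13.3 and 17.3 CPM in flox 1 to 5, and the groups overlapped. Foxo3, a forkhead factor related to Foxo1, read 80.7, 74.8, 81.3, 94.9 and 72.1 CPM in CKO 1 to 5, against 57.4, 53.4, 50.3, 59.0 and 54.4 CPM in flox 1 to 5. All CKO libraries were above all flox libraries, with a log2 fold change of 0.56 ± 0.11 (SE), 0.62 without flox 1 and flox 4, and an adjusted p over all genes of 0.174 in edgeR and 0.000675 in DESeq2. Hnf4a averaged 709 ± 104 CPM in CKO and 642 ± 49.7 CPM in flox. Foxo1 averaged 25.9 ± 0.823 CPM in CKO and 25.9 ± 4.25 CPM in flox. Foxo4 averaged 37.2 ± 2.48 CPM in CKO and 40.1 ± 8.46 CPM in flox, with log2 fold changes of -0.11 and, without flox 1 and flox 4, 0.12. No protein, phosphorylation or binding was measured here.

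The forkhead core GTAAACA, searched on both strands from 250 bases before to 50 bases after each RefSeq start (GRCm38.p6), was found in 1 of the 45 promoters of the 38 members that had one (2.22%), against 3.65% of 32851 promoters of all genes. That promoter belongs to the third listed start of Selenop, at chr15:3270727-3271026 on the plus strand, with the motif, in capitals, beginning 24 bases before the start. The other listed starts of Selenop held no match. The sequence is shown because Selenop is the member that separated the groups, and a match is a run of letters and not a binding site.
Selenop promoter: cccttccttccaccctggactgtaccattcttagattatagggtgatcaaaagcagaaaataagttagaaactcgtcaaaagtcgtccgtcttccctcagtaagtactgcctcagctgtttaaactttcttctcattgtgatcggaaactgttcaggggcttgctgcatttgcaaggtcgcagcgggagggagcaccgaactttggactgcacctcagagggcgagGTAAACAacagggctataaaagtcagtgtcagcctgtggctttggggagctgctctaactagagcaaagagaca

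Markers of other cells that make SELENOP were also measured. The summed level of 14 fibroblast and muscle markers ran from 31.4 to 104 FPKM in CKO and from 7.55 to 43.01 FPKM in flox. All 12 tested members of that list had a log2 fold change above 0, against 50.1% of all genes, with a median of 0.83. At an unadjusted edgeR p below 0.05, 6 of the 12 were higher, against 5.05% of all genes. Without flox 1 and flox 4, 12 of 13 tested were above 0 with a median of 0.98, and 1 was higher at that threshold, against 3.34% of all genes. Col3a1, a fibroblast collagen, read 13.7, 16.0, 43.7, 40.7 and 69.6 CPM in CKO 1 to 5, against 15.7, 18.2, 18.0, 6.04 and 11.9 CPM in flox 1 to 5. The groups overlapped for Col3a1, with CKO 1 and CKO 2 inside the flox range. The summed level of 12 macrophage markers ran from 41.0 to 114 FPKM in CKO and from 32.8 to 59.5 FPKM in flox, with 6 of the 12 under 1 FPKM on average. Most of that sum was Cd14, at 41.0 ± 11.6 FPKM in CKO and 29.9 ± 10.8 FPKM in flox and with a log2 fold change of 0.06. Of the 8 tested markers of that list 6 were above 0, against 50.1% of all genes, and 2 below, with a median of 0.08. Those below 0 were C1qa at -0.37 and Csf1r at -0.31. Without flox 1 and flox 4, 7 were above 0, against 53.3% of all genes, and 1 below, with a median of 0.69. C1qa and Csf1r were then at 0.68 and 0.10. The 4 hepatocyte markers in the table summed to 12.1 to 67.3 FPKM in CKO and 7.91 to 13.1 FPKM in flox. Most of that sum was Ttr, at 28.8 ± 24.1 FPKM in CKO and 6.62 ± 2.21 FPKM in flox. Alb, which defines hepatocytes, was at 0.736 ± 0.384 FPKM in CKO and 0.210 ± 0.149 FPKM in flox. Apoa2 went the other way, with means of 2.21 FPKM in CKO and 2.94 FPKM in flox. Apoa1 had means of 0.312 FPKM in CKO and 0.292 FPKM in flox. Of the 3 tested markers of that list 2 were above 0, Ttr at 1.64 and Alb at 1.52. The other, Apoa2, was below, at -1.01. Without flox 1 and flox 4 Ttr, Alb and Apoa2 stood at 1.72, 1.16 and -0.22. No marker of these lists was at 0 in every library. The part of these cells in the level of Selenop was not tested.

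The glutathione peroxidases, which reduce peroxides with glutathione, lay below 0 with all libraries. The median log2 fold change of the 4 was -0.71, but without flox 1 and flox 4 only Gpx2 and Gpx3 stayed below 0. Gpx2 read 548, 686, 563, 769 and 651 CPM in CKO 1 to 5, against 2115, 643, 1107, 2028 and 780 CPM in flox 1 to 5. The 2 highest values were those of flox 1 and flox 4, and the other flox libraries ran from inside the CKO range to above it. The log2 fold change was -1.05 ± 0.33 (SE) with all libraries and -0.38 ± 0.20 without flox 1 and flox 4. Gpx2 took 27.4% ± 2.60 of the summed selenoprotein counts in CKO and 39.6% ± 7.75 in flox (SD, n = 5 each).

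Gpx3, the secreted plasma form, was close to the floor of the family at 3.28, 3.66, 3.87, 4.77 and 4.81 CPM in CKO 1 to 5, against 17.6, 5.36, 7.49, 5.74 and 3.94 CPM in flox 1 to 5. A single library, flox 1, was far above all others, and the groups overlapped. Its log2 fold change was -0.97 ± 0.36 with all libraries and -0.45 ± 0.24 without flox 1 and flox 4. Gpx1, the general cytosolic form, averaged 285 ± 56.8 CPM in CKO and 367 ± 190 CPM in flox, and its log2 fold change was -0.36 with all libraries and 0.32 without flox 1 and flox 4. Gpx4, which reduces lipid peroxides in membranes, averaged 177 ± 36.0 CPM in CKO and 242 ± 104 CPM in flox, with log2 fold changes of -0.45 and 0.06 on the same 2 sets of libraries. Both therefore changed sign with the choice of libraries.

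The thioredoxin reductases, which reduce thioredoxin with NADPH, overlapped between the groups. Txnrd1, the cytosolic form and the most abundant of the 3, read 229, 237, 208, 255 and 182 CPM in CKO 1 to 5, against 254, 197, 232, 295 and 232 CPM in flox 1 to 5. The libraries of both groups were mixed. The log2 fold changes of Txnrd1, Txnrd2 (mitochondrial) and Txnrd3 (testis-enriched) ran from -0.12 to 0.01 with all libraries and from -0.09 to 0.02 without flox 1 and flox 4.

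Among the 7 selenoproteins of the endoplasmic reticulum and Golgi, Selenom and Selenoi differed most, in opposite directions. Selenom, a small thioredoxin-like protein of the reticulum, read 99.0, 91.1, 107, 195 and 94.2 CPM in CKO 1 to 5, against 448, 128, 175, 300 and 92.8 CPM in flox 1 to 5. Flox 1 and flox 4 were highest, CKO 4 was above the other CKO libraries, and the groups overlapped. The log2 fold change was -0.96 ± 0.40 (SE) with all libraries and -0.16 ± 0.29 without flox 1 and flox 4. Selenoi, an enzyme of phosphatidylethanolamine synthesis, read 56.5, 55.0, 49.2, 53.4 and 46.5 CPM in CKO 1 to 5, against 30.7, 44.2, 36.6, 33.8 and 55.6 CPM in flox 1 to 5. Flox 5 was inside the CKO range and the other flox libraries were below it. Its log2 fold change was 0.37 ± 0.16 with all libraries and 0.20 ± 0.14 without flox 1 and flox 4. Selenof, Selenok, Selenos, Selenot and Selenon, which serve folding, degradation and calcium handling in the reticulum, had log2 fold changes from -0.09 to 0.24 with all libraries and from -0.15 to 0.13 without flox 1 and flox 4.

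Of the other 4 selenoproteins, Selenow and Msrb1 had the highest levels per length and did not differ beyond their spread, at 117 ± 29.7 FPKM in CKO and 98.4 ± 41.3 FPKM in flox for Selenow. This small redox protein read 36.9, 27.4, 41.3, 67.7 and 43.9 CPM in CKO 1 to 5, against 127, 26.8, 39.1, 74.0 and 23.4 CPM in flox 1 to 5. Flox 1 and flox 4 were above all CKO libraries and the other flox libraries were at or below most of them. The log2 fold change was -0.41 ± 0.43 with all libraries and 0.56 ± 0.28 without flox 1 and flox 4. Selenoh, a nucleolar protein, averaged 16.0 ± 2.83 CPM in CKO and 14.9 ± 6.70 CPM in flox, with log2 fold changes of 0.11 and, without flox 1 and flox 4, 0.51. Selenoo, a mitochondrial enzyme, and Msrb1, which repairs oxidized methionine, had log2 fold changes of 0.01 and -0.37 with all libraries, and of -0.13 and 0.07 without flox 1 and flox 4.

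The genes that make selenocysteine overlapped between the groups. Sephs2, itself a selenoprotein, read 95.7, 92.2, 80.9, 76.9 and 74.9 CPM in CKO 1 to 5, against 92.9, 106, 95.5, 78.4 and 79.3 CPM in flox 1 to 5. The libraries of both groups were mixed, and the log2 fold change was -0.11 ± 0.12 (SE). Sepsecs averaged 27.8 ± 3.30 CPM in CKO and 22.1 ± 4.99 CPM in flox, with log2 fold changes of 0.32 and, without flox 1 and flox 4, 0.15. Secisbp2 averaged 17.3 ± 1.602 CPM in CKO and 16.0 ± 2.26 CPM in flox, with log2 fold changes of 0.11 and, without flox 1 and flox 4, 0.03. Pstk averaged 14.2 ± 2.79 CPM in CKO and 19.96 ± 9.60 CPM in flox, and its log2 fold change was -0.48 with all libraries and 0.13 without flox 1 and flox 4. Of 12 further genes of the selenium pathway 9 were tested, 3 with a log2 fold change above 0 and 6 below, and their median was -0.03. Over all genes 50.1% were above 0, and 5.05% were higher and 7.91% lower at an unadjusted edgeR p below 0.05. At an unadjusted p below 0.05, 0 of the 9 were higher and 2 were lower: Eefsec, the elongation factor for selenocysteine, at 16.1 ± 1.51 CPM in CKO and 21.1 ± 4.60 CPM in flox, and Sars, the seryl-tRNA synthetase, at 122 ± 4.82 CPM in CKO and 160 ± 38.5 CPM in flox. Without flox 1 and flox 4 none of the 9 was below that threshold, the median was -0.13, and the log2 fold changes were -0.23 for Eefsec and -0.13 for Sars, against -0.39 for each with all libraries. With all libraries neither passed adjustment over all genes, with adjusted p of 0.376 for Eefsec and 0.374 for Sars in edgeR. Lrp8, a receptor that takes up SELENOP, averaged 4.68 ± 0.735 CPM in CKO and 4.04 ± 1.99 CPM in flox, with log2 fold changes of 0.19 and, without flox 1 and flox 4, -0.22.

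**Figure D2:**
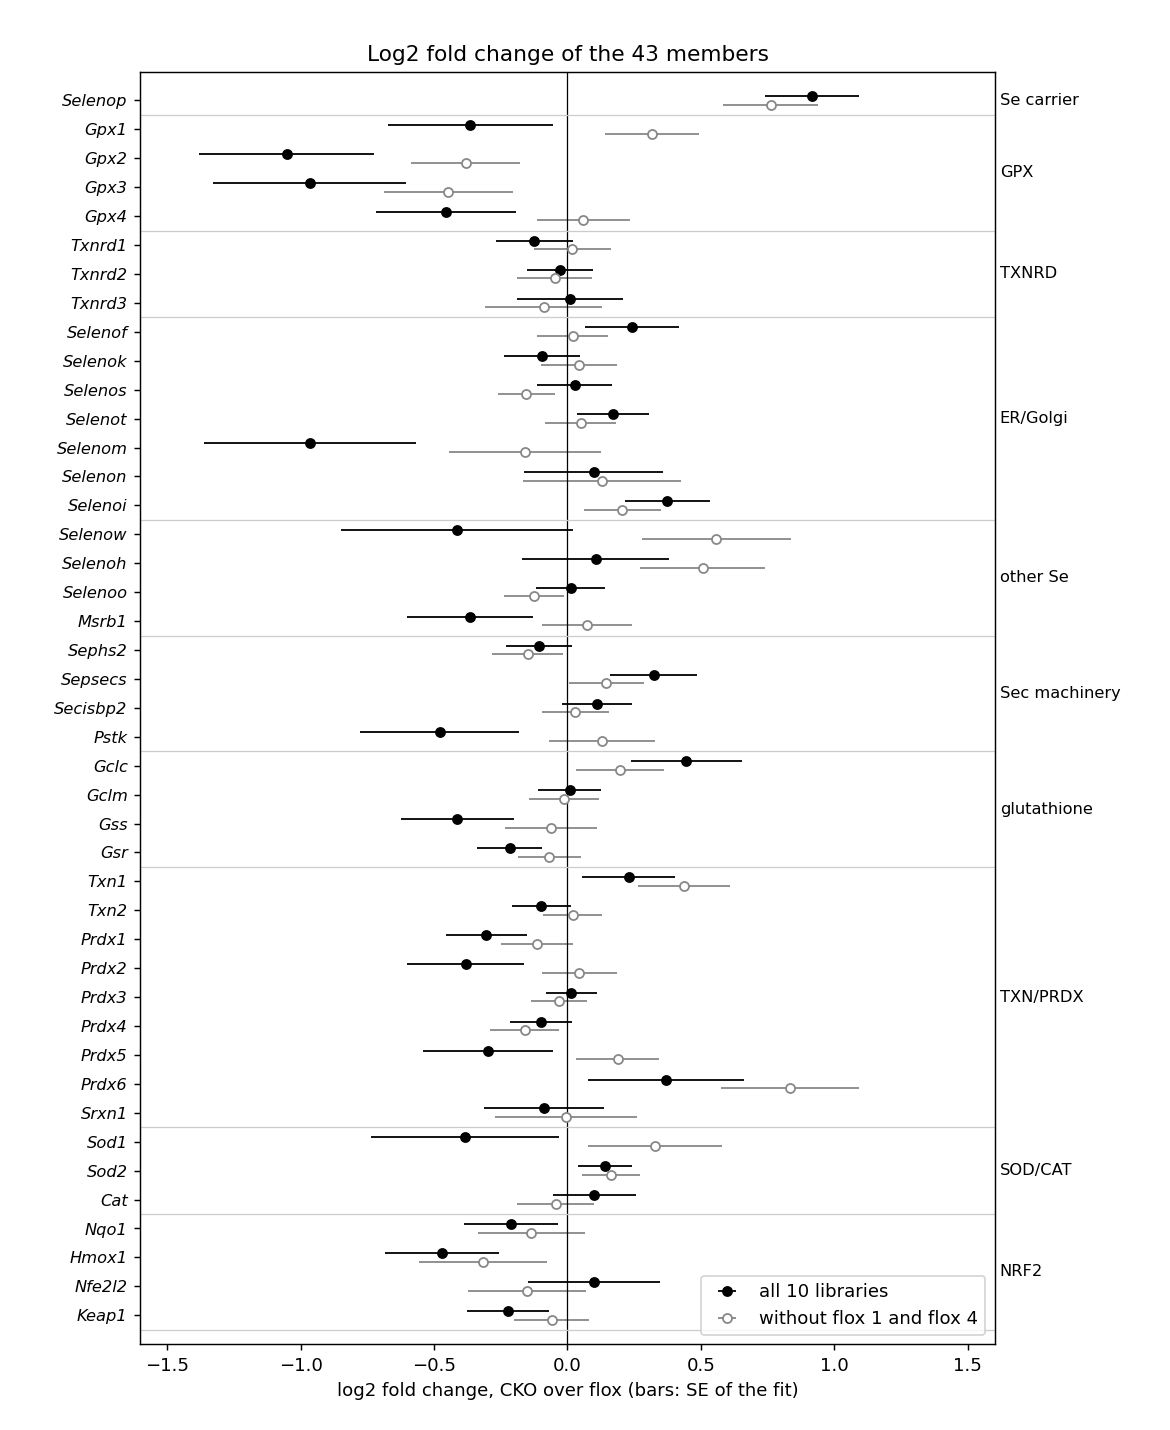
Log2 fold change of CKO over flox for the 43 members, grouped by role, with bars for the SE of the fit; filled points use all 10 libraries and open points leave out flox 1 and flox 4. Selenop is at 0.92 and 0.76, whereas Gpx1, Selenow and Sod1 are below 0 with all libraries and above 0 without the 2 flox libraries.

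Glutathione synthesis and reduction showed no common direction among its 4 members. Gss, the second enzyme of glutathione synthesis and the one with the highest level per length here, read 191, 189, 175, 248 and 152 CPM in CKO 1 to 5, against 344, 178, 232, 325 and 192 CPM in flox 1 to 5. Flox 1 and flox 4 were again highest, and the log2 fold change was -0.41 ± 0.21 with all libraries and -0.06 ± 0.17 without them. Gclc, the catalytic subunit of the first enzyme, averaged 44.1 ± 7.88 CPM in CKO and 32.3 ± 9.83 CPM in flox, with log2 fold changes of 0.45 ± 0.21 and, without flox 1 and flox 4, 0.20 ± 0.16. Gclm, its modifier subunit, had log2 fold changes of 0.01 and, without flox 1 and flox 4, -0.01, and Gsr, which reduces oxidized glutathione, of -0.22 and -0.07. Of 22 other glutathione and thiol genes 20 were tested, 4 above 0 and 16 below with a median of -0.15, against 50.1% of all genes above 0. The split without flox 1 and flox 4 was 11 above and 10 below, against 53.3% of all genes above 0. Over all genes 5.05% were higher and 7.91% lower at an unadjusted edgeR p below 0.05 with all libraries. At an unadjusted p below 0.05, 0 of the 20 were lower and 1 was higher, Mgst1, a microsomal glutathione transferase, at 88.9 ± 12.6 CPM in CKO and 64.5 ± 15.5 CPM in flox (adjusted p = 0.372 in edgeR). Its log2 fold change was 0.46 with all libraries and 0.24 without flox 1 and flox 4, where its unadjusted p was 0.0989.

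Prdx6, a peroxiredoxin that also reduces phospholipid peroxides, was the thioredoxin and peroxiredoxin member with the highest level per length. It read 941, 1023, 1557, 1152 and 1914 CPM in CKO 1 to 5, against 1312, 630, 804, 1555 and 799 CPM in flox 1 to 5. CKO 3 and CKO 5 were the highest CKO libraries, flox 1 and flox 4 were the highest flox libraries, and the groups overlapped. The log2 fold change was 0.37 ± 0.29 with all libraries and 0.83 ± 0.26 without flox 1 and flox 4, where its adjusted p was 0.648 in edgeR. Txn1, the cytosolic thioredoxin, read 570, 448, 467, 689 and 524 CPM in CKO 1 to 5, against 586, 403, 395, 513 and 405 CPM in flox 1 to 5. The log2 fold change of Txn1 was 0.23 ± 0.17 with all libraries and 0.44 ± 0.17 without flox 1 and flox 4, where its adjusted p was 0.737 in edgeR. Prdx1 to Prdx5, Txn2 and Srxn1, which restores overoxidized peroxiredoxins, had log2 fold changes from -0.38 to 0.01 with all libraries and from -0.16 to 0.19 without flox 1 and flox 4.

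Superoxide dismutases and catalase overlapped between the groups. Sod1, the cytosolic dismutase, read 233, 193, 260, 416 and 226 CPM in CKO 1 to 5, against 625, 187, 269, 468 and 185 CPM in flox 1 to 5. Flox 1, flox 4 and CKO 4 were the 3 highest libraries, and the log2 fold change was -0.38 ± 0.35 with all libraries and 0.33 ± 0.25 without flox 1 and flox 4. Sod2, the mitochondrial dismutase, averaged 90.7 ± 5.10 CPM in CKO and 82.2 ± 6.998 CPM in flox. Cat, which breaks down hydrogen peroxide, averaged 45.1 ± 7.41 CPM in CKO and 42.0 ± 7.35 CPM in flox, with log2 fold changes of 0.10 and, without flox 1 and flox 4, -0.04.

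NRF2, encoded by Nfe2l2, turns on antioxidant genes when its inhibitor KEAP1 is oxidized. Nfe2l2 read 155, 151, 109, 86.6 and 86.6 CPM in CKO 1 to 5, against 67.8, 138, 101, 87.4 and 153 CPM in flox 1 to 5. The groups overlapped, with flox 1 below every CKO library, and the log2 fold change was 0.10 ± 0.25 with all libraries and -0.15 ± 0.22 without flox 1 and flox 4. Hmox1, heme oxygenase and a target of NRF2, was low at 1.79, 2.28, 2.94, 2.52 and 2.94 CPM in CKO 1 to 5, against 4.27, 3.55, 3.16, 3.70 and 2.68 CPM in flox 1 to 5. Flox 5 was inside the CKO range and the other flox libraries were above it, with a log2 fold change of -0.47 ± 0.21, and -0.32 ± 0.24 without flox 1 and flox 4. Keap1 averaged 74.3 ± 11.04 CPM in CKO and 86.8 ± 17.0 CPM in flox, with log2 fold changes of -0.22 and, without flox 1 and flox 4, -0.06. Nqo1, a quinone reductase and NRF2 target, averaged 38.9 ± 9.59 CPM in CKO and 45.1 ± 5.21 CPM in flox, with log2 fold changes of -0.21 and, without flox 1 and flox 4, -0.14.

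Of 15 further NRF2 targets 4 had a log2 fold change above 0 and 11 below, against 50.1% of all genes above 0. Their median was -0.29, and -0.06 without flox 1 and flox 4. At an unadjusted edgeR p below 0.05, 0 of the 15 were higher and 2 were lower, against 5.05% and 7.91% of all genes. Pgd, an NADPH-making enzyme of the pentose phosphate pathway, averaged 397 ± 81.2 CPM in CKO and 540 ± 104 CPM in flox, with log2 fold changes of -0.44 and, without flox 1 and flox 4, -0.23, where its unadjusted p was 0.236. Me1, the NADPH-making malic enzyme, read 39.4, 57.3, 17.1, 27.8 and 7.82 CPM in CKO 1 to 5, against 63.5, 57.1, 67.9, 60.6 and 105 CPM in flox 1 to 5. CKO 2 and flox 2 overlapped, and the log2 fold change of Me1 was -1.25 ± 0.42 with all libraries and -1.36 without flox 1 and flox 4. The adjusted p over all genes was 0.365 for Me1 and 0.379 for Pgd in edgeR. The antioxidant response element TGACNNNGC, searched on both strands of the same windows, was found in 7 of the 45 member promoters (15.6%), those of Gclm, Nfe2l2, Prdx1, Selenok, Sod1, Srxn1 and Txnrd1, against 12.4% of all promoters.

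The selenoproteins and the other members are described as classes by counts and medians. Of the 20 selenoproteins 9 had a log2 fold change above 0 and 11 below, with a median of -0.06. Of the 23 other members 10 were above 0 and 13 below, with a median of -0.10. Over all 14963 genes tested 50.1% were above 0 and the median was 0.0010. Without flox 1 and flox 4 the selenoproteins had 12 above and 8 below with a median of 0.03, and the other members 11 above and 12 below with a median of -0.0049, against a median of 0.018 over all genes. The sign of the log2 fold change differed between these sets of libraries for 9 of 20 selenoproteins and 9 of 23 other members, against 4038 of 14963 genes. Which way most members lay also turned with scaling: with library totals in place of TMM, 17 of 20 selenoproteins and 22 of 23 other members were above 0, with medians of 0.31 and 0.27 beside 0.36 over all genes.

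**Figure D3:**
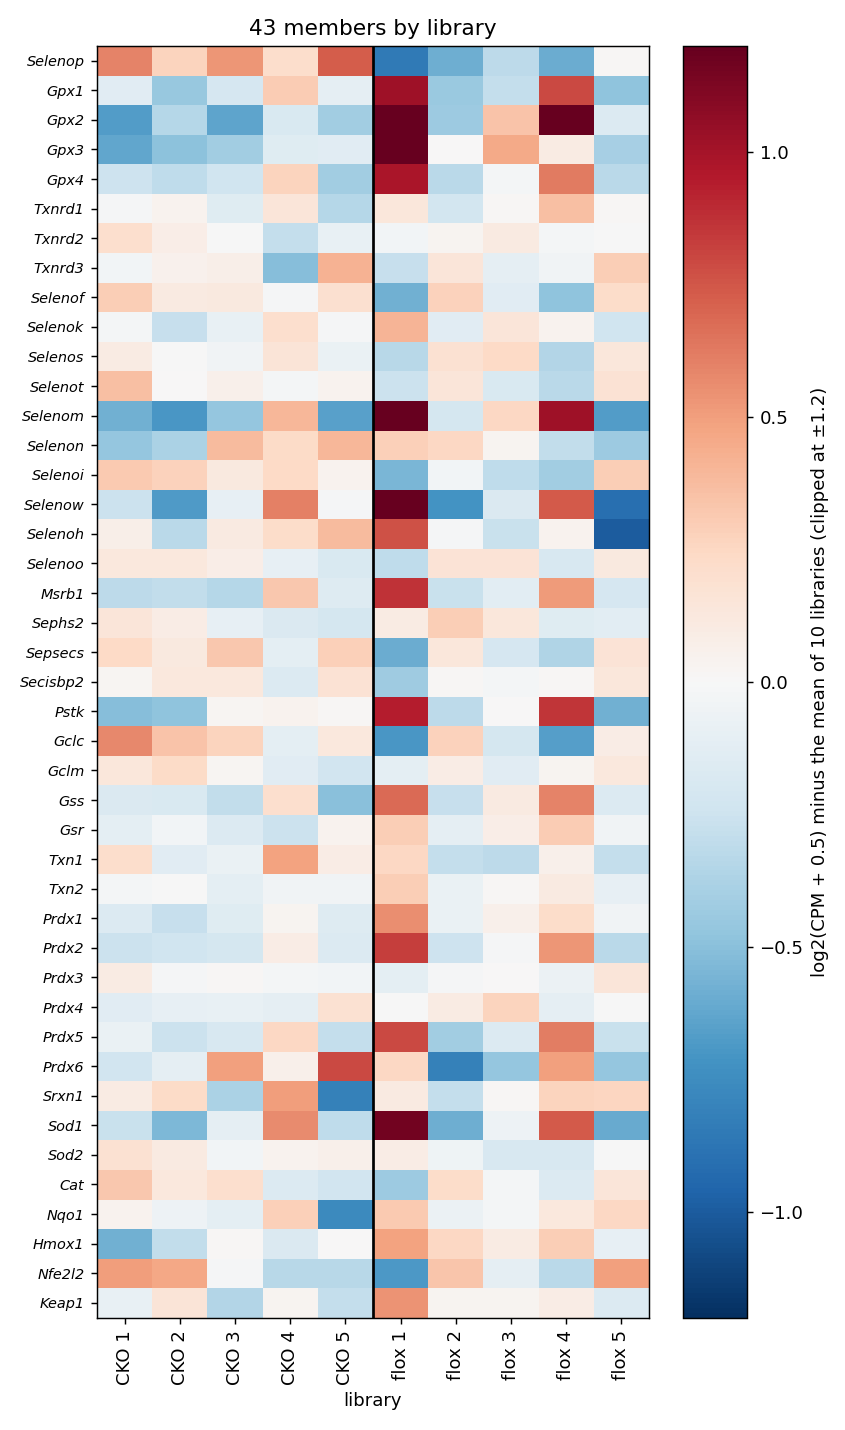
Level of the 43 members in each library, CKO 1 to 5 on the left and flox 1 to 5 on the right, as log2(CPM + 0.5) minus the mean of the 10 libraries, clipped at 1.2 in either direction; rows are grouped by role. Red blocks in flox 1 and flox 4 mark Gpx1, Gpx2, Gpx4, Selenom, Selenow, Pstk and Sod1. Selenop is red across CKO and blue across most of flox, and Selenoi shows the same more faintly.

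Much of the variation among members ran between flox 1 and flox 4 and the other 3 flox libraries, and it moved with the length of the mRNA. Flox 1 and flox 4 were both above the other 3 flox libraries for 20 of 43 members and both below for 13, against 26.9% and 29.5% of all genes. The median mRNA length was 1636 bases for the selenoproteins and 2294 bases for the other members, against 2940 bases over 12648 genes. Across the 43 members the Spearman correlation of mRNA length with the log2 ratio of flox 1 and flox 4 to the other flox libraries was -0.58. That of mRNA length with the log2 fold change of CKO over flox was 0.51 with all libraries and -0.01 without flox 1 and flox 4. With the length of all exons of a gene in place of that of 1 mRNA the correlations were weaker, at -0.32 with the flox ratio, and at 0.29 and, without flox 1 and flox 4, 0.10 with the log2 fold change. These are correlations across genes of the same 10 libraries, which are not independent replicates. Short members such as Gpx2, Selenom, Selenow and Sod1 were high in flox 1 and flox 4, and Selenoi, with the longest mRNA of the selenoproteins at 6803 bases, was low there. Other short members went the other way. The log2 ratio of flox 1 and flox 4 to the other flox libraries was -0.67 for Selenof, at 1514 bases. It was -0.54 for Selenos, at 1191 bases, and -0.19 for Prdx4, at 990 bases. Selenop was lower in flox 1 and flox 4 than in the other flox libraries by 0.45 on the log2 scale of CPM. A part of RNA quality in these values was not tested.

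**Figure D4:**
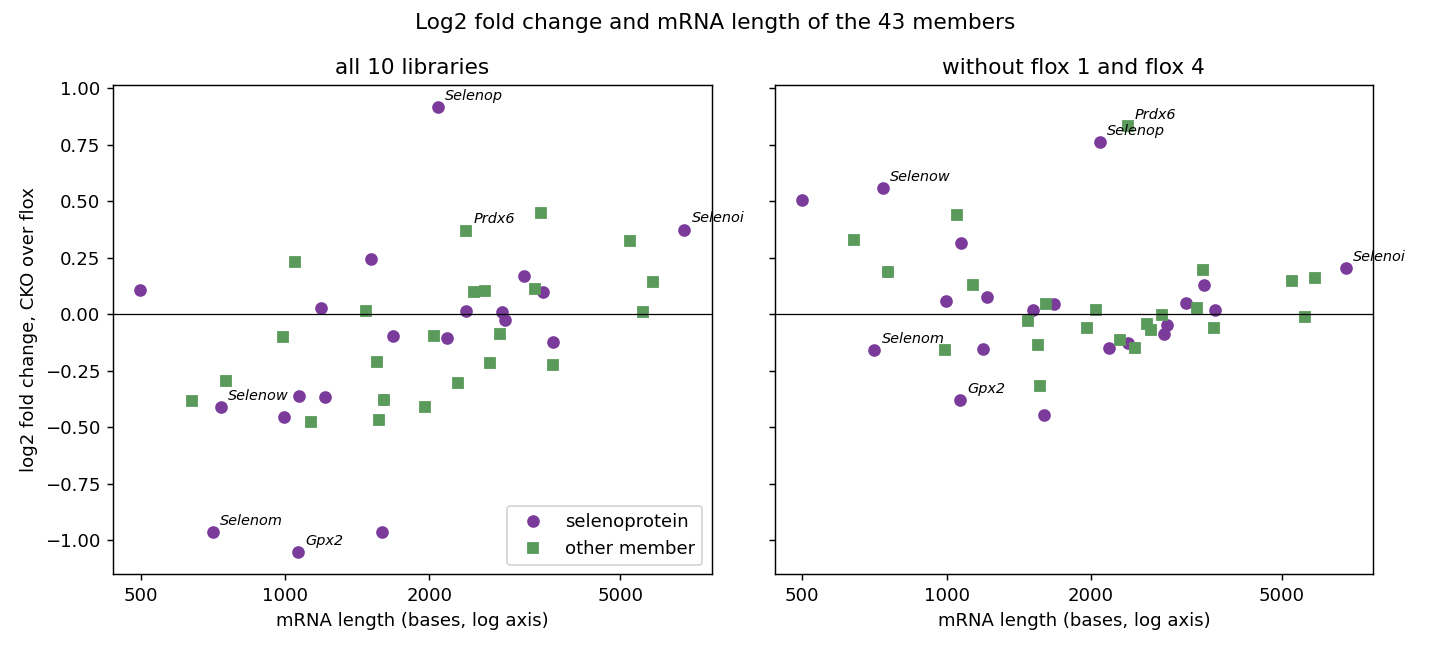
Log2 fold change of CKO over flox (vertical axis) against mRNA length in bases (horizontal axis, log) for the 43 members, with all 10 libraries on the left and without flox 1 and flox 4 on the right; circles are selenoproteins and squares the other members. The Spearman correlation is 0.51 on the left and -0.01 on the right, and Selenop is at 0.92 and 0.76.

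Per length, on the deposited FPKM scale, the members spanned about 3 orders of magnitude. Gpx2 stood highest at 1059 ± 107 FPKM in CKO and 1458 ± 299 FPKM in flox (SD, n = 5 each). It was followed by Prdx6 at 1224 ± 477 FPKM in CKO and 794 ± 172 FPKM in flox, Sod1 at 908 ± 209 FPKM in CKO and 775 ± 180 FPKM in flox, and Txn1 at 838 ± 80.8 FPKM in CKO and 527 ± 99.0 FPKM in flox. In CKO the mean ± SD ranges of neighbours in this order overlapped, and Prdx6 had a higher mean than Gpx2. In flox the range of Gpx2 was above that of Prdx6, while those of Prdx6 and Sod1 and of Sod1 and Txn1 overlapped. Gpx1, Selenom, Prdx1 and Gpx4 came next, between 315 and 494 FPKM in CKO and between 309 and 471 FPKM in flox. Selenop stood at 154 ± 35.8 FPKM in CKO and 64.2 ± 29.8 FPKM in flox, beside Selenof at 157 ± 21.8 FPKM in CKO and 109 ± 55.5 FPKM in flox. It made up 4.90% ± 1.11 of the summed selenoprotein FPKM in CKO and 2.01% ± 1.13 in flox. The lowest members were Gpx3, Txnrd3, Hmox1 and Selenon, with 1.52 ± 0.548 FPKM for Selenon in CKO and 1.09 ± 0.461 FPKM in flox. FPKM values are scaled by library totals and not by TMM, so differences between groups on this scale need not match those in CPM.

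**Figure D5:**
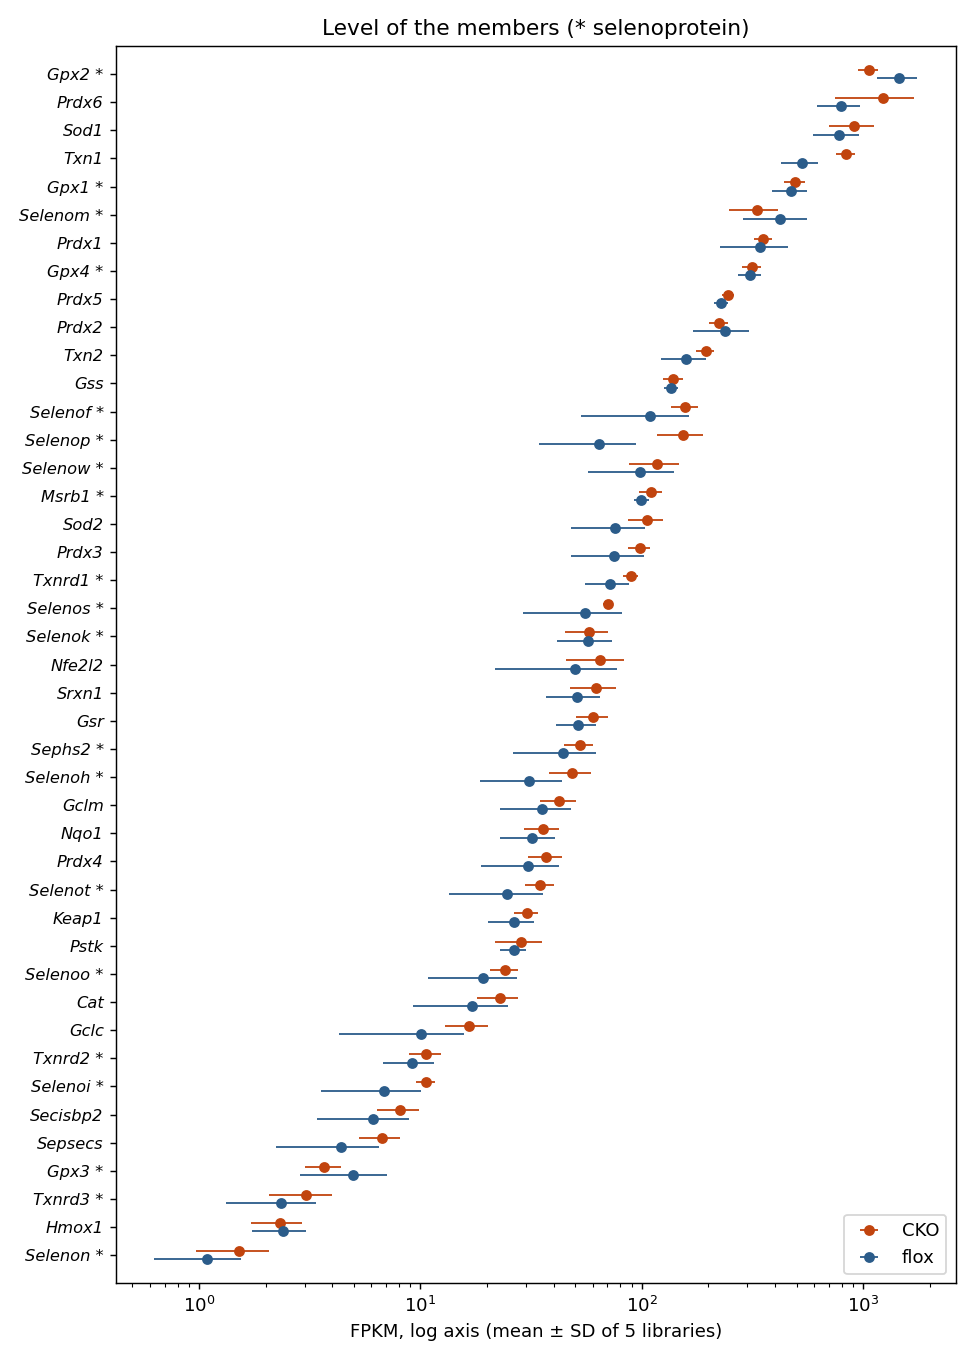
Level of the 43 members in FPKM (log axis), mean and SD of 5 libraries, with CKO above flox in each row and selenoproteins marked by an asterisk; rows are ordered by the mean of both groups. Gpx2, Prdx6, Sod1 and Txn1 are at the top and Selenon is at the bottom, and Selenop is at 154 FPKM in CKO and 64.2 FPKM in flox.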

How the data were processed

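Messenger RNA of colon crypts was sequenced in 5 CKO and 5 flox libraries. The submitters' processing notes name fastp and HISAT2; the counting tool, its strand setting and the genome build are not stated in the labels used here. The deposited counts are whole reads per Ensembl gene ID, not normalized, and the authors deposited FPKM values, which are scaled per length and per library total. Members, gene lists and tests were chosen with earlier results of these data known. Symbols came from GENCODE M21 (GRCm38; 26095 of 33632 IDs). Genes were filtered with filterByExpr (14963 kept), scaled by TMM and compared with edgeR 4.0.16 (R 4.3.3, robust quasi-likelihood test, group as the only term), with Benjamini-Hochberg adjustment over all genes and a threshold of 0.05. The script was tested on simulated data. Total counts were 18926634 to 23642415 per library. CPM values use the TMM library sizes and are mean ± SD; intervals are at 95%. Alternatives were other scalings and filters, DESeq2 1.42.0, limma 3.58.1 (voom and log2(FPKM + 1) or log2(FPKM + 0.1)), covariates for mitochondrial share and length slope, a replicate block and each library left out. Leaving out flox 1 and flox 4 with DESeq2 was chosen after seeing the data. Coding sequences are from GENCODE, with 1 transcript for each gene, and promoters from RefSeq. Values in every library are given for Selenop, members with an unadjusted p under 0.05 or no overlap, and the member of each role with the highest mean FPKM; Txn1 and Col3a1 were added after their values were seen. Gpx2, Gpx4, Prdx2, Prdx6, Selenok and Txn1 have near-identical copies in the annotation whose shared reads were not measured, and reads of overlapping antisense genes cannot be told apart.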

Additional observations from a re-analysis of the deposited data

Results flagged for a closer look

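Outliers were sought in 86 groups of 5 libraries (43 members in CKO and in flox). For each group the gap of the outermost library to its nearest neighbour was divided by the range of the 5. In 7 groups this ratio exceeded Dixon's 95% critical value of 0.71, which chance gives in about 1 of 20 groups. In CKO 4, which had the highest mitochondrial share of the CKO libraries at 11.8%, 4 members stood above the other CKO libraries. Selenom was at 195 CPM in CKO 4 and at 91.1 to 107 CPM in the others. Msrb1 was at 84.7 CPM in CKO 4 and at 52.9 to 60.5 CPM in the others. Gpx4 was at 240 CPM in CKO 4 and at 148 to 168 CPM in the others. Prdx2 was at 252 CPM in CKO 4 and at 198 to 211 CPM in the others. Selenot was at 101 CPM in CKO 1 and at 77.9 to 82.6 CPM in the other CKO libraries. Prdx4 was at 25.3 CPM in CKO 5 and at 20.2 to 20.9 CPM in the other CKO libraries. Gpx3 was at 17.6 CPM in flox 1 and at 3.94 to 7.49 CPM in the other flox libraries. The part of the mitochondrial share in these values was not tested.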

How the results depend on the processing

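Selenop stayed above 0 in all 27 alternatives, with a log2 fold change of 0.74 to 1.37 and an adjusted p of 0.000652 to 0.509. The family was picked after this difference had been seen, so these refits of the same counts are no independent support. Gpx2 ran from -1.23 to -0.34 and Prdx6 from 0.20 to 0.90. Genes called were 170 with DESeq2, 44 with limma voom and quality weights, 71 with DESeq2 without flox 1 and flox 4, 3 without a filter, 1 with the mitochondrial share as a covariate and 5 with the length slope; in the first 3 of these 1 member, Selenop, was called. Leaving out 1 library gave 0 to 2 genes, 2 of them without flox 2, and 0 members. Medians were 0.31 for the selenoproteins and 0.27 for the other members with library totals, 0.30 and 0.31 with log2(FPKM + 1), and 0.34 and 0.32 with log2(FPKM + 0.1), against 0.36, 0.30 and 0.41 over all genes; 17 of 20 selenoproteins and 22, 21 and 21 of 23 other members were above 0. The median of the other members was 0.0043 with the mitochondrial covariate. Leaving out 1 library gave medians of -0.10 to -0.03 and -0.13 to -0.06, with 6 to 9 selenoproteins and 7 to 11 other members above 0. The cause was not tested. Of 1161 member values 126 moved by more than the spread between libraries. Same-numbered libraries correlated at -0.30, 0.28, 0.09, 0.40 and -0.06 in their deviations from the group means. Differently numbered libraries reached similar sizes, with CKO 4 at 0.50 with flox 1 and -0.53 with flox 2. These values therefore cannot decide if same-numbered libraries share an origin, which the labels used here do not state. With the replicate block 0 genes passed, Selenop was at 0.93 (adjusted p = 0.247 in edgeR), and the medians were -0.06 and -0.10.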
